A study of Microtus ochrogaster with 34 samples.

Results

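The genes described here were picked for a mean expression in the testis that was higher in winter than in summer, both in males that had stopped spermatogenesis and in males that had kept it. They were chosen by their group means of RPKM, a measure in which the reads counted on a gene are divided by its exon length and by a library size. The rule asked for a mean of at least 2 RPKM in W- testes, a W-/S ratio from 2 to below 4, a W+/S ratio of at least 2 and a W+/W- ratio from 0.67 to 1.5. It selected 5 of the 23038 genes in the table. Because these means made the choice, the differences between groups are given below as a description and not as a test. For 3 of the 5 genes, the values of single animals went against a description as higher in winter whatever the gonadal state. Below the S median were 5 of 11 W- and 3 of 5 W+ animals for ENSMOCG00000003539, and 3 W- and 3 W+ animals for ENSMOCG00000015763. For ENSMOCG00000014567, 4 W- animals were below every S value, while all 5 W+ animals were above every S value. For the other 2 genes most winter animals were above the S median. ENSMOCG00000003534 had all 11 W- and all 5 W+ animals there, and ENSMOCG00000007843 had 10 of 11 W- and 4 of 5 W+ animals. These 2 genes had 0 to 8 reads per library, so their values in single animals are uncertain. The set is therefore called the 5 genes that met the rule.

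The animals were wild males of the fossorial water vole *Arvicola terrestris scherman* (*ATS*), trapped in pastures, with genotype given as WT and no treatment in any group. S males (18 libraries) were caught in July and August, and winter males in January and February. W+ males (5 libraries) maintained spermatogenesis in winter and W- males (11 libraries) did not, as judged by histology. The W- group is mixed, since it joins testes with spermatogenesis fully arrested and testes with an intermediate picture, and the labels do not say which library is which. The labels give no age, year or trapping site for a library. Each library was polyA RNA of the testis of 1 animal.

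In seasonally breeding rodents the length of the day acts through melatonin, the pituitary and thyroid hormone signalling on the testis. When the testis regresses, meiotic cells and spermatids are lost from the seminiferous tubules, while Sertoli cells, Leydig cells and spermatogonia persist. RNA of a regressed testis therefore holds a larger share from the persisting cells. The rule sought genes at a like level in W+ and W- testes. Genes that follow the season need not show this pattern, since the larger share from persisting cells also enters the W- values. In RNA of whole testes, fewer cells of a type and less RNA per cell cannot be told apart.

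Counted reads per library ran from 5534633 to 63857259 in S (median 7504568), from 2938627 to 9653984 in W- (median 7986021) and from 4960104 to 8576453 in W+ (median 6440073). S replicates 12 to 15 were deeper than every other library. The reads had been aligned to the genome of another species, the prairie vole *Microtus ochrogaster*, and the table names genes only by Ensembl identifiers. No source used here pairs these identifiers with symbols, so the functions of the 5 genes, their neighbours and their sequences are not given, and the tissue label was not checked against marker genes.

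At this level of expression few genes came near the pattern. A W- mean of at least 2 RPKM was reached by 12703 genes, and 2735 of these had a W-/S ratio from 2 to below 4. Among these 2735 genes the W+/S ratio had a median of 1.32, and 23 genes (0.841%) reached the limit of 2. The W+/W- ratio of the 2735 genes had a median of 0.485 (5th percentile 0.345, 95th percentile 0.650), and 91 genes (3.33%) were inside the limits of 0.67 and 1.5. Genes raised in W- testes by this amount thus had, for the most part, W+ means closer to those of S. Both conditions together left the 5 genes.

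**Figure D1:**
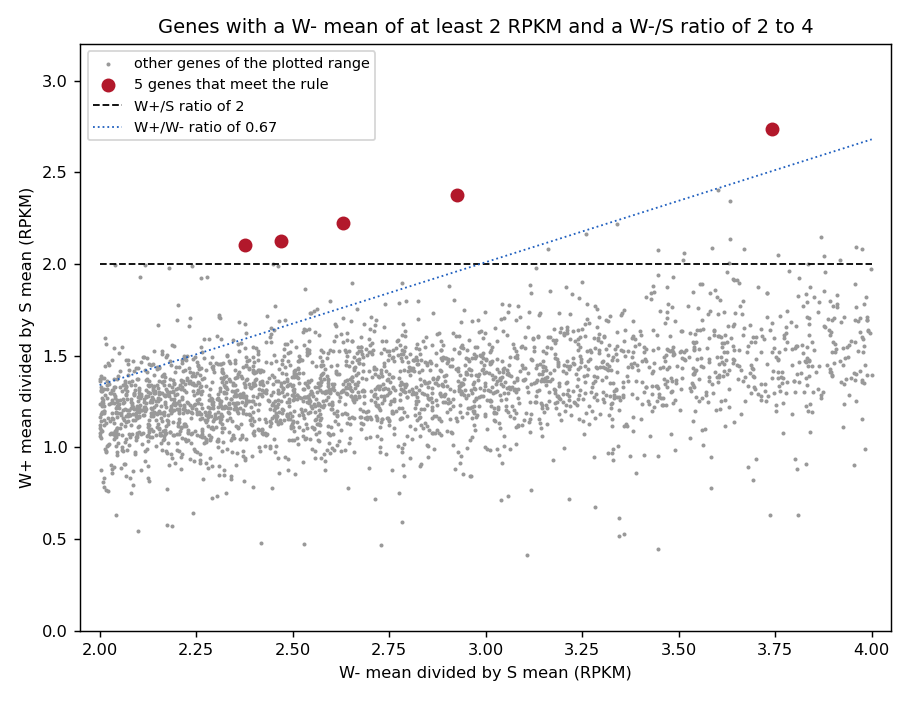
Ratio of W+ to S means against ratio of W- to S means (linear axes, 1 point per gene) for the 2735 genes with a W- mean of at least 2 RPKM and a W-/S ratio from 2 to below 4. The 5 genes that met the rule (red) are above both the dashed line (W+/S ratio of 2) and the dotted line (W+/W- ratio of 0.67), at W+/S ratios of 2.11 to 2.74, whereas most points are below both lines.

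The limits cut through a continuous range of values. For the W+/S ratio, the nearest of the 5 genes stood at 2.11 and 2.12, and 86 genes that failed only this limit began at 1.997. For the W+/W- ratio, the lowest of the 5 genes stood at 0.732 and 0.812, and 18 genes that failed only this limit began at 0.667 and 0.665. The W-/S ratio of 2.38 was the lowest of the 5, against 1.84 for the nearest gene outside, and 3.74 was the highest, against 4.20 outside. W- means of the 5 genes began at 2.41 RPKM, and 101 genes with lower W- means, from 1.75 RPKM down, met every ratio of the rule.

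Over the 19185 genes high enough to be tested, 22.8% were called higher in W- than in S, 1.19% were called higher in W+ than in S and 37.3% were called in either direction between W+ and W- (limma, adjusted p under 0.05 and a log2 fold change beyond 1). All 5 genes were among those tested. Of these, 3 were called higher in W- than in S, with a median log2 fold change of 1.34 (range 0.14 to 2.41) beside a median of -0.04 over all genes tested. In W+ against S, limma called 0 of the 5, with 1 at an unadjusted p under 0.05 and 1 called by limma-voom on the recovered reads. Their median log2 fold change in W+ against S was 1.00 (range -0.23 to 2.05), beside -0.06 over all genes. Between W+ and W-, limma called 0 of the 5, and 0 had an unadjusted p under 0.05. The rule used these contrasts, so the counts say nothing beyond it. The comparisons with S share their 18 S libraries.

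The groups overlapped for nearly all of the 5. Every W- value lay above every S value in 15.1% of the genes tested and in 0 of the 5. Every W+ value lay above every S value in 0.839% of the genes tested and in 1 of the 5. Both conditions were met by 0.683% of the genes tested and by 0 of the 5.

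**Figure D2:**
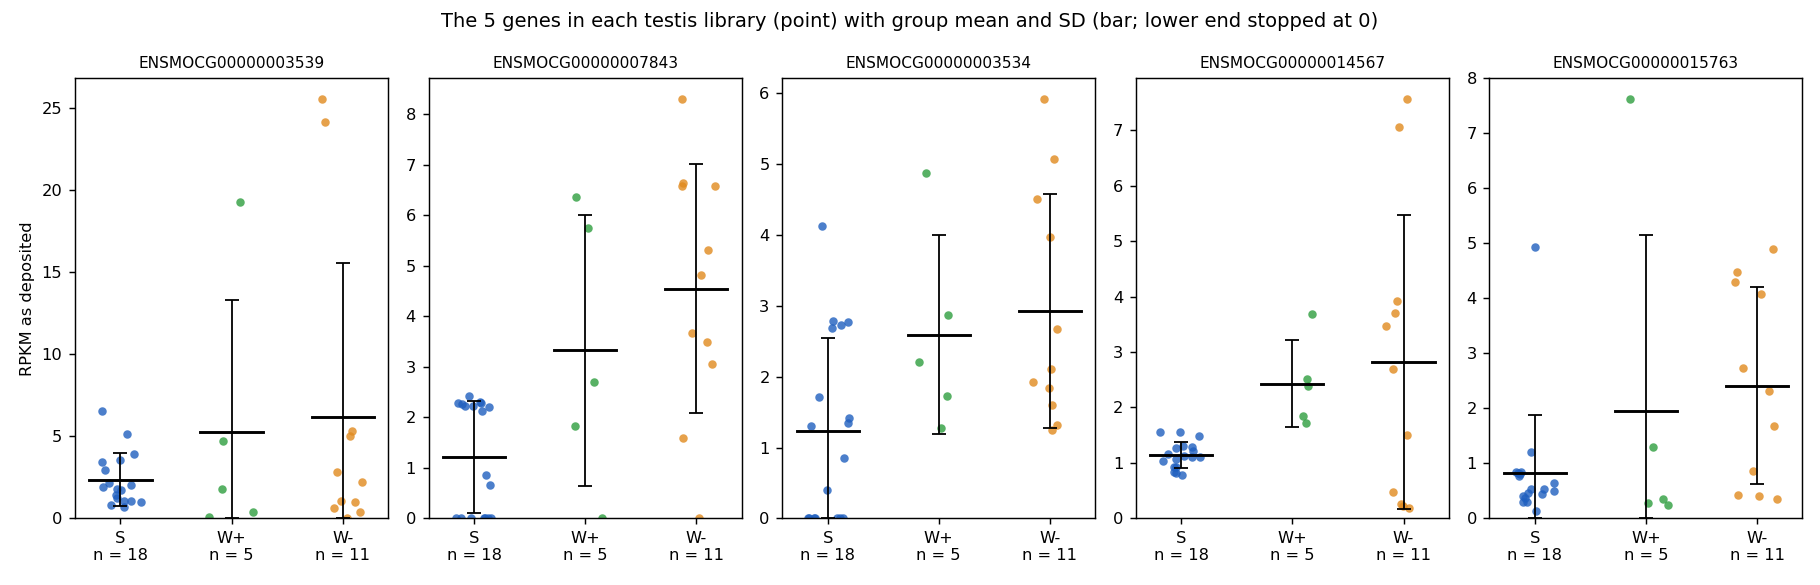
RPKM as deposited of each of the 5 genes in every library (1 point per animal, linear axis of its own for each gene), with the group mean as a horizontal line and the SD as a bar stopped at 0 (S n = 18, W+ n = 5, W- n = 11). Winter and summer points overlap in each gene, and the W- and W+ means of ENSMOCG00000003539 stand above most of their points.

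ENSMOCG00000014567 (6492 bases of exon) was the only one of the 5 with W+ values clear of S, and it had the most reads of the 5 in every group. In S testes it ranged from 0.787 to 1.56 RPKM with a median of 1.12. The W+ values were 3.69, 2.38, 1.84, 1.72 and 2.51 RPKM for W+ replicates 1 to 5, from 72 to 254 reads each. All 5 W+ animals were above the highest S animal, the closest of them by little.

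In W- testes the same gene ran from 0.188 to 7.56 RPKM with a median of 2.70. The W- animals fell on both sides of summer: 6 were above every S value, 4 (W- replicates 2, 4, 7 and 10, at 0.220, 0.473, 0.188 and 0.263 RPKM) were below every S value, and 1 was within the S range. The low values came from 14 to 40 reads, so that they were not an effect of single reads. The means were 1.14 ± 0.239 RPKM in the S group (SD, n = 18), 2.82 ± 2.65 RPKM in the W- group (SD, n = 11) and 2.43 ± 0.782 RPKM in the W+ group (SD, n = 5). On the log2(RPKM + 0.1) scale, the fitted difference was 0.44 (SE 0.39) for W- against S and 1.00 (SE 0.52) for W+ against S, and neither was called.

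ENSMOCG00000015763 (2102 bases) was raised in most W- testes, while its W+ mean came from 1 animal. It ranged in S from 0.134 to 4.94 RPKM with a median of 0.535, and in W- from 0.354 to 4.90 RPKM with a median of 2.32. The top S value belonged to S replicate 4 alone, since the next was 1.20 RPKM. No W- animal exceeded S replicate 4.

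The W+ values of ENSMOCG00000015763 were 1.30, 0.353, 0.237, 7.62 and 0.287 RPKM for W+ replicates 1 to 5. W+ replicate 4 supplied 77.8% of the W+ sum, and 3 of the 5 W+ animals were below the S median. The means were 0.825 ± 1.06 RPKM in the S group (SD, n = 18), 2.41 ± 1.79 RPKM in the W- group (SD, n = 11) and 1.96 ± 3.19 RPKM in the W+ group (SD, n = 5). Without the highest animal of each, the S mean was 0.583 ± 0.267 RPKM (SD, n = 17) and the W+ mean 0.545 ± 0.507 RPKM (SD, n = 4). The W+/S ratio was 2.37 with all libraries and 0.660 without W+ replicate 4. By medians in place of means, the W-/S ratio was 4.34 and the W+/S ratio 0.661. The fitted log2 difference was 1.34 (SE 0.46) for W- against S, which was called, and 0.37 (SE 0.60) for W+ against S, which was not.

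Across the 34 libraries, the gene most like ENSMOCG00000015763 was ENSMOCG00000015113, with a Pearson correlation of 0.86 on log2(RPKM + 0.1), and of 0.94 over the 16 winter libraries. It was found by searching all genes tested, and the libraries share their group differences and composition. Its means were 0.421 ± 0.954 RPKM in the S group (SD, n = 18), 2.27 ± 1.55 RPKM in the W- group (SD, n = 11) and 1.33 ± 2.37 RPKM in the W+ group (SD, n = 5). For the other 4 genes, the highest correlation with any gene tested was between 0.625 and 0.746 over the 34 libraries and between 0.768 and 0.907 over the 16 winter libraries, where the closest gene was not the one found over all 34.

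ENSMOCG00000003539 (1747 bases) had the highest winter mean of the 5, 5.90 RPKM over 16 libraries, and owed it to 3 animals. It ranged in S from 0.716 to 6.54 RPKM (median 1.87) and in W- from 0.0443 to 25.5 RPKM (median 2.24). The W- animals at the top were W- replicates 6 and 9, at 25.5 and 24.2 RPKM, which held 72.8% of the W- sum, and the next value was 5.34 RPKM. At the other end, 3 W- animals were below the lowest S animal and 5 were below the S median. Over the 11 W- libraries, the Pearson correlation of the gene with the summed RPKM of the library was -0.63. The same correlation was 0.32 over the 18 S libraries, and it ran from -0.25 to 0.32 for the other genes of the set in W-. The part of library composition in the values of ENSMOCG00000003539 was not tested.

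The W+ values of ENSMOCG00000003539 were 19.3, 1.79, 0.0952, 0.367 and 4.72 RPKM for W+ replicates 1 to 5, from 357, 21, 1, 5 and 41 reads. W+ replicate 1 held 73.5% of the W+ sum, and 3 of the 5 W+ animals were below the S median. The means were 2.36 ± 1.61 RPKM in the S group (SD, n = 18), 6.20 ± 9.39 RPKM in the W- group (SD, n = 11) and 5.25 ± 8.05 RPKM in the W+ group (SD, n = 5), with each winter SD larger than its mean. The W-/S ratio of 2.63 became 0.874 without W- replicates 6 and 9, and the W+/S ratio of 2.23 became 0.739 without W+ replicate 1. On the log2 scale the fitted differences were 0.14 (SE 0.63) for W- against S and -0.23 (SE 0.83) for W+ against S, each smaller than its error. For this gene the ratio of means and the fitted log2 difference in W+ against S differed in sign.

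The remaining genes were very short and rested on a handful of reads. ENSMOCG00000003534 spans 116 bases of exon and ENSMOCG00000007843 spans 70 bases, whereas the median over genes tested was 1709 bases. A total exon length under 120 bases was found in 494 of the 19185 genes tested (2.57%) and in 2 of the 5. For such genes a single read moves the RPKM by a large step: 1 read was worth 0.661 to 2.10 RPKM in W- and 0.813 to 1.73 RPKM in W+ for ENSMOCG00000003534, and 1.10 to 3.49 RPKM in W- and 1.35 to 2.87 RPKM in W+ for ENSMOCG00000007843.

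ENSMOCG00000003534 was the only one of the 5 in which all 16 winter animals were above the S median. It ranged in S from 0 to 4.13 RPKM (median 1.08) and in W- from 1.25 to 5.91 RPKM (median 2.10). The W+ values were 4.88, 1.28, 2.87, 2.21 and 1.73 RPKM for W+ replicates 1 to 5, from 6, 1, 2, 2 and 1 reads. In S, 7 of 18 libraries were at 0, where a count of 0 allows up to 3.85 to 5.45 RPKM depending on the library (3 reads), which is above most of the winter values. All S libraries together held 28 reads, the W- libraries 40 and the W+ libraries 12.

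The means of ENSMOCG00000003534 were 1.23 ± 1.31 RPKM in the S group (SD, n = 18), 2.93 ± 1.65 RPKM in the W- group (SD, n = 11) and 2.59 ± 1.41 RPKM in the W+ group (SD, n = 5). With reads summed per group, the W-/S ratio was 2.63 (95% exact binomial interval 1.58 to 4.42) and the W+/S ratio 2.44 (1.13 to 4.95). These intervals and the limits at a count of 0 cover counting error only, and the gene was chosen for a high ratio. The variance between libraries was 1.18 times that of counting alone in S, 1.10 times in W- and 0.705 times in W+. Its fitted log2 difference was 2.17 (SE 0.62) for W- against S, which was called, and 2.05 (SE 0.82) for W+ against S, which was not.

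ENSMOCG00000007843 had 13 reads over all S libraries, 36 over the W- libraries and 8 over the W+ libraries. It ranged in S from 0 to 2.43 RPKM (median 1.49) and in W- from 0 to 8.29 RPKM (median 4.81). The W+ values were 2.69, 6.37, 0, 1.83 and 5.74 RPKM for W+ replicates 1 to 5, from 2, 3, 0, 1 and 2 reads. In 17 of the 18 S libraries the gene had at most 1 read. Values above every S animal were seen in 9 of 11 W- and 3 of 5 W+ animals, and 1 animal of each winter group was at 0. A count of 0 allows up to 1.22 to 9.04 RPKM in the 7 S libraries at 0, 3.74 RPKM in the W- library and 7.13 RPKM in the W+ library. W- replicate 5, at 3.49 RPKM, had a single read.

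The means of ENSMOCG00000007843 were 1.22 ± 1.10 RPKM in the S group (SD, n = 18), 4.55 ± 2.47 RPKM in the W- group (SD, n = 11) and 3.33 ± 2.68 RPKM in the W+ group (SD, n = 5). With reads summed per group, the W-/S ratio was 5.09 (95% exact binomial interval 2.64 to 10.5) and the W+/S ratio 3.50 (1.26 to 9.12). The first of these sums is outside the upper limit of 4 that the mean RPKM met at 3.74. The variance between libraries was 0.771, 0.926 and 0.987 times that of counting alone in S, W- and W+, so that differences between animals of a group were not detectable at this depth. The fitted log2 difference was 2.41 (SE 0.77) for W- against S, which was called, and 1.57 (SE 1.01) for W+ against S, which was not.

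Leaving out single libraries showed how many animals each selection needed. With each of the 34 libraries left out in turn, ENSMOCG00000014567 kept meeting the rule 33 times, failing without W+ replicate 1. ENSMOCG00000015763 kept it 32 times and failed without W+ replicate 4 or S replicate 4. ENSMOCG00000003539 kept it 31 times and failed without W+ replicate 1, W- replicate 6 or W- replicate 9. ENSMOCG00000007843 kept it 31 times and failed without W+ replicate 2, W+ replicate 5 or W- replicate 7. ENSMOCG00000003534 kept it 26 times and failed without W+ replicate 1 or without any 1 of 7 S replicates (5, 7, 9, 10, 11, 16 and 18). None of the 5 met it in all 34 cases, and without W+ replicate 1 only 2 of them (ENSMOCG00000007843 and ENSMOCG00000015763) did.

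**Figure D3:**
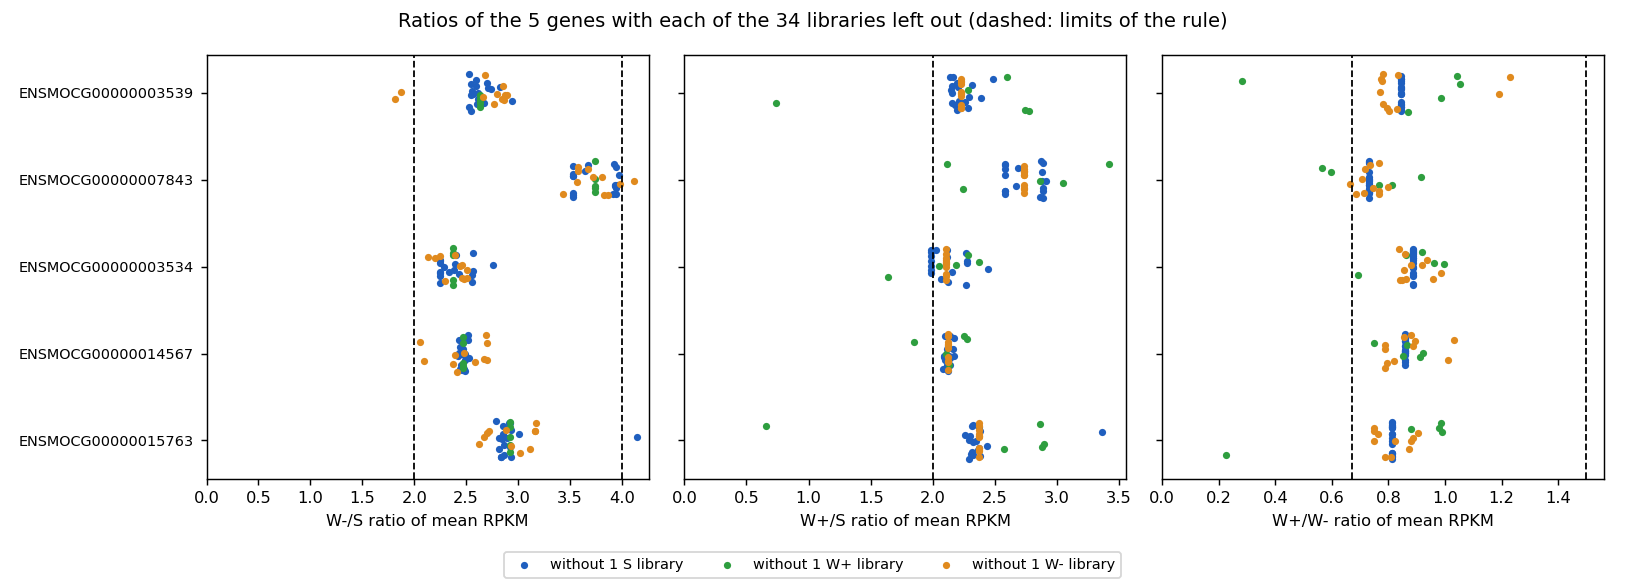
Ratios of group means (linear axes) for the 5 genes, recomputed with each of the 34 libraries left out, coloured by the group of the library, with dashed lines at the limits of the rule. The W+/S ratio falls to 0.739 for ENSMOCG00000003539 and to 0.660 for ENSMOCG00000015763 without 1 W+ animal.

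The spread between animals, which the rule did not use, was wide in the 3 longer genes. Among W- libraries the SD of log2(RPKM + 0.1) was 2.29 for ENSMOCG00000003539, 1.83 for ENSMOCG00000014567 and 1.38 for ENSMOCG00000015763, with variances of 256, 166 and 28.2 times that of counting. The SD was 1.79 for ENSMOCG00000007843 and 0.77 for ENSMOCG00000003534, but in these short genes the variance was 0.926 and 1.10 times that of counting, so their SD is not a measure of spread between animals. The 2703 genes tested with W- means in the same range (2.41 to 6.20 RPKM) had a median SD of 0.50 and a 95th percentile of 1.52, and 76.9% to 98.7% of them had a lower SD than the gene in question. ENSMOCG00000014567 combined this with a narrow summer spread: its SD in S was 0.28, below all but 4.98% of the 2371 genes with S means from 0.825 to 2.36 RPKM. The genes of like level were matched by RPKM and not by reads. At 6492 bases, against a median of 1709 over genes tested, ENSMOCG00000014567 has more reads at a given RPKM than most. Its variance in S was 4.08 times that of counting, and the part of length in its low SD was not tested. Its SD among W+ libraries was 0.42, close to the median of 0.44 for 2498 genes of like level. The W+ SD of ENSMOCG00000003539 was 2.64 and that of ENSMOCG00000015763 was 1.90, against a 95th percentile of 1.21. These genes were selected on means, which a few high values can raise, and the part of that in their spread was not tested.

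**Figure D4:**
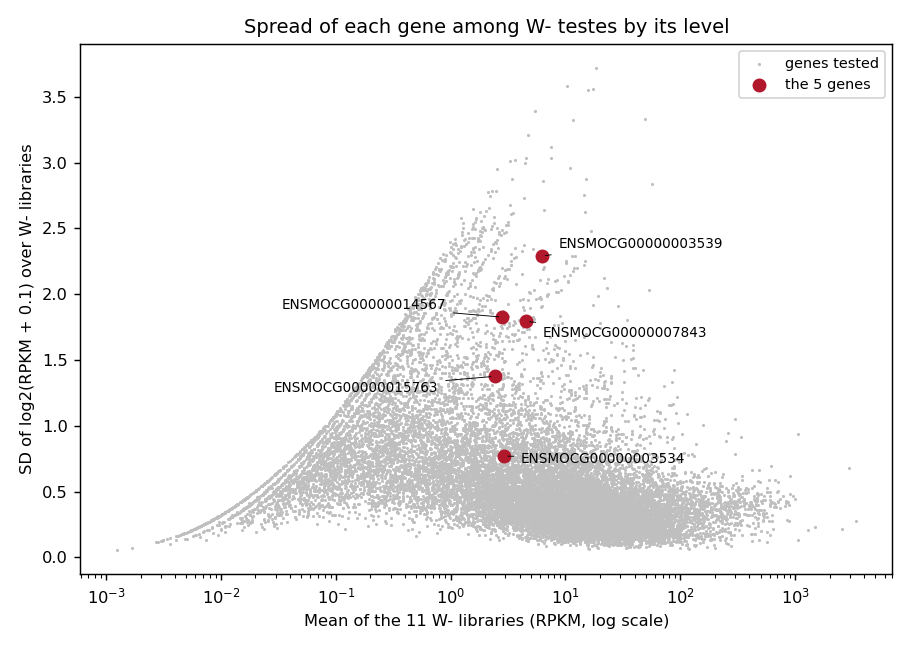
SD of log2(RPKM + 0.1) over the 11 W- libraries against the mean RPKM of these libraries (log axis) for the genes tested (grey), with the 5 genes in red. Of the 5, 4 have an SD from 1.38 to 2.29, where genes of like level have a median of 0.50, and the SD of 1 of these 4, ENSMOCG00000007843, is within counting error (variance 0.926 times that of counting).

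Correlations between pairs of the 5 genes over the animals of a group were of either sign. Over the 10 pairs of genes, Pearson correlations of log2(RPKM + 0.1) in W- (11 libraries) ran from -0.78 to 0.63 with a median of -0.06, and 5 of the 10 were above 0. In S (18 libraries) they ran from -0.40 to 0.22 with a median of 0.05, and 6 of the 10 were above 0. Most of the pairs include ENSMOCG00000003534 or ENSMOCG00000007843, whose variance in W- was 1.10 and 0.926 times that of counting. Correlations with these genes are largely counting error, so the 10 pairs do not show whether the genes vary together between animals. The highest W- values were found in W- replicates 6 and 9 for ENSMOCG00000003539, W- replicates 8 and 11 for ENSMOCG00000014567, W- replicate 11 for ENSMOCG00000015763 and ENSMOCG00000007843, and W- replicate 1 for ENSMOCG00000003534. W- replicate 8 was also high, at 4.30 RPKM of ENSMOCG00000015763 and 6.58 RPKM of ENSMOCG00000007843. It did not stand apart, since W- replicate 2 had 4.48 RPKM of the first gene and W- replicate 3 had 6.64 RPKM of the second.

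The 18 genes that failed only the lower W+/W- limit had W-/S ratios from 3.16 to 3.97, W+/S ratios from 2.00 to 2.40 and W+/W- ratios from 0.517 to 0.667. Their W- means ran higher, from 3.25 to 110.6 RPKM, and their values were less scattered, with a median SD of 0.63 (range 0.24 to 1.09) in W-, 0.53 in W+ and 0.44 in S, against medians of 1.79, 1.90 and 0.92 for the 5, the short genes included. Every winter value lay above every S value in 3 of these 18 genes. Those genes were in turn lower in W+ than in W- testes by their means, which is what the rule had set them aside for.

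The selection also depended on how libraries were scaled. The deposited values set the typical gene equal between libraries, and scaling by the total of counted reads raises the median gene by 0.70 (log2) in W- against S and by 0.34 in W+ against S. With that scaling the W-/S ratios of the 5 genes ran from 3.87 to 6.02, their W+/S ratios from 2.75 to 3.43 and their W+/W- ratios from 0.570 to 0.723. The rule then took 34 genes, of which 1 (ENSMOCG00000003534) was among the 5. With group medians in place of means it took 24 genes, of which 1 (ENSMOCG00000014567) was among the 5. The 5 genes are thus a set for these means and this scaling.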

How the data were processed

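Testis polyA RNA of 34 *ATS* males was sequenced, 1 library per animal, with groups taken from the sample titles. The authors trimmed reads (Trim Galore 0.6.10, FastQC 0.12.1), aligned them to MicOch1 with Hisat2 and used HTSeq-count for reads per gene, and deposited RPKM made in their DESeq2 process. The submitters' notes also name a mouse build. How reads with more than 1 hit were treated, the strand setting and the annotation release were not given in the sources used here, so reads shared with overlapping or near-identical genes cannot be told apart.

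The deposited RPKM were used as they are. Differences were fitted with limma 3.58.1 (R 4.3.3, eBayes with trend) on log2(RPKM + 0.1), in 1 fit of the 34 libraries over the 19185 genes that reached 0.1 RPKM in 5 or more libraries. The pseudocount shrinks changes of low genes, while libraries at 0 can widen them, so fitted differences of genes with few reads depend on it. P-values were adjusted over all of them (Benjamini-Hochberg). For 20821 genes 100% of the values were whole multiples of 1 read (tolerance 0.02), which gave reads and exon lengths, and the other 2217 genes were at 0 throughout. The library size behind the RPKM was proportional to median-of-ratios size factors. Within each group, every pair of libraries differed by more than sampling noise. The fitting steps were tested on simulated data, in which only genes with many reads were raised and the spread was that of S. The simulation therefore does not cover genes with few reads or genes with a wide winter spread.

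The rule, the tests and the gene lists were chosen with earlier results of these data known. The cell type, pathway and promoter motif lists were not run, because neither symbols nor sequences could be tied to the identifiers. The rule for named genes, where symbols are lacking, prints the gene with the highest winter mean (ENSMOCG00000003539) and the gene with the highest ratio of the smallest winter to the largest S value (ENSMOCG00000003534). The other 3 genes and ENSMOCG00000015113 were named after their values were seen. Alternatives covered the pseudocount, filter, scaling, voom on recovered reads, a replicate block, group medians, S replicates 12 to 15 left out and each library left out. Sums of reads per group, a minimum average of 10 reads per library and the count of the 5 genes that still met the rule were added after seeing the data.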

Additional observations from a re-analysis of the deposited data

Results flagged for a closer look

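A check for single animals far from the rest of their group covered the 5 W+ animals of each of the 5 genes, and 2 of these 5 groups of values had one. Chance alone gives about 1 in 20 for genes not chosen on these values, and that share does not apply here, since the W+ means were part of the rule. The W- and S groups, with 11 and 18 animals, were not examined, so animals apart from the rest in these groups are not counted here. In S, for example, ENSMOCG00000015763 was at 4.94 RPKM in S replicate 4 and at 1.20 RPKM in the next animal. W+ replicate 1 had 19.3 RPKM of ENSMOCG00000003539, and its gap to the nearest W+ animal was 0.759 of the whole W+ range (limit 0.71). W+ replicate 4 had 7.62 RPKM of ENSMOCG00000015763, with a gap of 0.856 of the range. Without these animals the genes did not meet the rule, and they were different animals for the 2 genes. They were not the only such animals. ENSMOCG00000003539 also failed without W- replicate 6 or 9, and ENSMOCG00000015763 without S replicate 4.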

How the results depend on the processing

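The number of genes that met the rule moved most. It was 5 as deposited, 34 with scaling by total counted reads, 12 after quantile normalization, 24 with group medians and 9 without S replicates 12 to 15. It was 18 with reads summed per group and 3 among genes that averaged at least 10 reads per library over the 34 libraries, both chosen after seeing the data, and 4 to 16 with single libraries left out. Of the original 5, these alternatives kept 1, 4, 1, 4, 3 and 3 in that order, and 2 to 5 with single libraries left out. The 3 genes called higher in W- than in S became 1 with a pseudocount of 1 and 4 with totals, where ENSMOCG00000014567 was added, and stayed 3 with any single library left out. The 0 genes called higher in W+ than in S became 2 with totals, 1 with voom and 0 to 1 with single libraries left out, where the call was ENSMOCG00000003534 without S replicate 1, 2, 3, 6 or 8. With totals, calls rose over all genes tested as well. The share called higher went from 22.8% to 38.6% in W- against S and from 1.19% to 4.88% in W+ against S. Shares over all genes are not given here for the other settings. The 0 genes called between W+ and W- became 0 to 1 with single libraries left out, through ENSMOCG00000015763 without W+ replicate 4. Of 450 log2 differences of the 5 genes against S over 45 alternatives, 13 changed sign, 9 gained a call and 2 lost it. For ENSMOCG00000003539 in W- against S (0.14), the sign changed without S replicates 12 to 15 (-0.068), and single libraries left out gave -0.21 to 0.53, with the low values without W- replicates 6 (-0.21) and 9 (-0.20). In W+ against S (-0.23) it changed with pseudocounts of 0.5 (0.059) and 1 (0.17), with totals (0.093) and with voom (0.030), and single libraries left out gave -1.10 to 0.55, positive without W+ replicates 3 (0.55) and 4 (0.24). For ENSMOCG00000015763 in W+ against S (0.37) they gave -0.40 to 0.73, negative without W+ replicate 4. The cause of these changes was not tested beyond the libraries and settings named. Depth limits ENSMOCG00000003534 and ENSMOCG00000007843, with 0 to 8 reads per library, and their log2 differences in W- against S fell from 2.17 to 0.95 and from 2.41 to 1.33 with a pseudocount of 1.

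Replicate numbers occur in all 3 groups, but same-numbered animals did not deviate together, with correlations of -0.05 to 0.10 between S and W-, -0.05 to 0.02 between S and W+ and -0.16 to 0.14 between W- and W+, where 1 of 11, 0 of 5 and 1 of 5 pairs correlated best with their own number. The numbers are therefore taken as names only. With the number as a replicate block, 3 genes were called in W- against S, 0 in W+ against S and 1 between W+ and W- (ENSMOCG00000015763). The block changed the sign of ENSMOCG00000003539 in W- against S (-0.19) and in W+ against S (0.31), and of ENSMOCG00000015763 in W+ against S (-0.57).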
